A study of Homo sapiens with 24 samples.

Results

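The protein genes of the cytosolic ribosome were followed in 4 gastrointestinal tumour cell lines treated with melatonin. Members were all genes whose symbol is RPL or RPS, with P for the acidic stalk proteins, followed by a number and at most a final A or X, and that had at least 1 probe set carrying this symbol alone. They came to 67 of the 18244 genes measured, 43 of the large subunit with 127 probe sets and 24 of the small subunit with 66 probe sets. No filter on low values was used, so all 67 entered every fit of gene values. Other genes of the cytosolic ribosome that the rule did not take up were not analysed here, apart from FAU.

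The 4 lines were HGC-27 (gastric carcinoma), HCT-8 (colorectal adenocarcinoma), Huh-7 and HepG2 (hepatocellular carcinoma). Each had 3 arrays of cells given melatonin, labelled 24 h and dosed at 2.5 mmol/L in the study's methods, and 3 arrays of control cells. The labels place the controls at 0 h, while the methods describe ethanol-treated cells cultured alongside, so a change over the culture time and a change with melatonin cannot be told apart if the labels hold. The study describes the 3 arrays of a group as biological replicates. Each line is a single established tumour line.

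The ribosome is built from a small subunit, which reads the mRNA, and a large subunit, which joins amino acids and carries the exit tunnel of the new chain. Their proteins are made in balanced amounts and are among the most abundant products of a growing cell. The mRNAs of vertebrate ribosomal proteins begin with a C followed by an unbroken run of pyrimidines, the terminal oligopyrimidine (TOP) tract, through which the kinase mTOR controls their translation. An array measures mRNA level and not translation.

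RefSeq start windows (build GRCh38.p14) were set beside the measurements because this tract is the sequence the genes are known for. Each window below runs from 10 bases before the listed start through 20 bases from it, 5′ to 3′, with the longest pyrimidine run in capitals. RPS26, RPL35A, RPS14 and RPS29 are shown because they were called in the same direction in at least 3 lines, RPL13A because it was called in opposite directions in 2 lines, and RPS3 and RPLP1 because they were called in none. These calls are those of the fit of mean gene values described below.
RPS26 chr12:56041908-56041937 (+): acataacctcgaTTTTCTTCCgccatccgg
RPL35A chr3:197950180-197950209 (+): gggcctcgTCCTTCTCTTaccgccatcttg
RPS14 chr5:150449720-150449749 (-): ccctcccaCTCTCTCTTTCCggtgtggagt
RPS29 chr14:49598691-49598720 (-): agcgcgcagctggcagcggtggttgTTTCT
RPL13A chr19:49487598-49487627 (+): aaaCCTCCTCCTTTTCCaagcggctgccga
RPS3 chr11:75399508-75399537 (+): cgagccaCTTCCTTTCCTTTCagcggagcg
RPLP1 chr15:69452808-69452837 (+): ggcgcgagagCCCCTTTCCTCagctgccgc

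In RPL35A, RPS14, RPL13A, RPS3 and RPLP1 a C at the listed start opened or continued the run, while in RPS26 the run of 9 pyrimidines began 2 bases after the listed start and the run of RPS29 began 15 bases after it and reached the end of the window, so that its 5 bases are a minimum. Of the 67 members, 57 had a listed start, and 42 of these (73.7%) had a C at 1 of their starts followed by at least 4 more pyrimidines, against 5.14% of the 27305 genes in the table. The shares were 75% (27 of 36) for the large and 71.4% (15 of 21) for the small subunit. The letters CTTCCG, searched on both strands in the 300 bases around each start and able to overlap the tract, were found in 38 of 57 members (66.7%) and in 22.6% of all listed genes. Members with and without the tract at a listed start had small median changes side by side. Their median log2 fold changes were -0.043 (42 members) and -0.051 (15 members) in HGC-27 cells. They were -0.020 and -0.042 in HCT-8 cells, and 0.060 and 0.036 in Huh-7 cells. In HepG2 cells the order was reversed, at 0.035 and 0.066. The difference between these medians was not tested.

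The deposited values are log2 intensities, in which 1 unit is a 2-fold step. Replicate arrays correlated at 0.9968 or more over all genes except in the HepG2 melatonin group, whose lowest pair reached 0.9522. HepG2 melatonin replicate 1 had 3′ minus 5′ probe differences of 8.34 for ACTB and 7.72 for GAPDH on the log2 scale, where no other array exceeded 0.72 and 0.07. The HepG2 counts and the HepG2 values that turn on it are therefore given also without it, and a HepG2 value with no such mention includes it. Marker genes were summarised by the median of each class in the controls, and single genes of a class could lie far from it. The median of the liver markers stood 6.35 and 7.73 log2 units above the median gene in Huh-7 and HepG2 controls. In HCT-8 controls, the medians of the epithelial and gut markers stood 7.90 and 3.82 above the median gene. HGC-27, labelled gastric carcinoma, had class medians of -1.55 for epithelial, -1.46 for gut and 1.31 for mesenchymal markers. Its gut marker CDX2 stood at 1.09. Of its mesenchymal markers, VIM and ZEB1 lay above the median gene and FN1 and CDH2 below it. In Huh-7 the gut median was -1.04, while CDX2 and CDH17 stood at 4.45 and 4.11. The medians of the leukocyte and endothelial markers lay between -1.80 and -0.86 in the 4 lines. Some single genes lay outside this range. In Huh-7, PTPRC stood at -2.19, CD14 at 0.70 and PECAM1 at 0.77.

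Most ribosomal protein genes moved little with melatonin. With limma's moderated test and Benjamini-Hochberg adjustment to 5% over all 18244 genes, 16 of 67 members were called in HGC-27 (23.9%), against 39.6% of all genes. Of these, 2 were higher and 14 lower (2.99% and 20.9% of the members), against 20.9% and 18.6% of all genes. In HCT-8 cells 11 members were called (16.4%), against 31.6% of all genes, with 3 higher and 8 lower, against 16.6% and 15% of all genes. In Huh-7 cells 24 members were called (35.8%), against 51.2% of all genes, with 17 higher and 7 lower (25.4% and 10.4%), against 23.8% and 27.4%. In this fit the members' share lay below that of all genes in each of these lines, while the share of members lower in HGC-27 and the share higher in Huh-7 were close to the background. The order of the shares depends on the test. A limma fit with an intensity trend and robust spread called 27 of 67 members in HGC-27 cells, against 40.1% of all genes, 29 in HCT-8 cells, against 32.7%, and 43 in Huh-7 cells, against 50.8%, so that the members' share was close to that of all genes in HGC-27 and the higher one in HCT-8 and Huh-7. The methods' t-test with Benjamini-Hochberg adjustment called 22 members in HGC-27 cells, against 32.9% of all genes, 19 in HCT-8 cells, against 23.2%, and 34 in Huh-7 cells, against 44%, again with the members' share higher in HCT-8 and Huh-7.

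In HepG2, 2 members were called (2.99%), against 7.55% of all genes, with 1 higher and 1 lower, against 3.87% and 3.68%. Without melatonin replicate 1 there were 8 (11.9%), against 31.4% of all genes, with 4 higher and 4 lower, against 16.5% and 14.9%. These 8 were RPL13, RPL31, RPS27 and RPS29 on the higher side and RPL27A, RPL32, RPS14 and RPS26 on the lower side, and the remaining 59 members were called neither with nor without that array. RNA from a culture does not separate fewer cells from less RNA per cell.

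The sizes were as modest as the counts. The median absolute log2 fold change of the members was 0.054 in HGC-27 cells, 0.076 in HCT-8 cells and 0.10 in Huh-7 cells, against 0.12, 0.13 and 0.19 over all genes. In HepG2 it was 0.16 for both, and without melatonin replicate 1 it was 0.091 for members and 0.13 for all genes. A fold change of at least 1.5 together with the test was met by RPS26 in HGC-27, by RPL27A in HCT-8 (from a probe set near the array median), by RPL37, RPS26, RPS14 and RPL35A in Huh-7, and by RPS29 and RPS26 in HepG2.

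The direction of the typical member differed from line to line. The members' median log2 fold change was -0.043 in HGC-27 and -0.029 in HCT-8, next to -0.014 and -0.035 over all genes. In Huh-7 it was 0.078, next to -0.063 over all genes, and in HepG2 it was 0.070, next to 0.041. On the single Huh-7 melatonin arrays the members' median deviation from the control mean lay between 0.066 and 0.071, and on the single HGC-27 melatonin arrays between -0.048 and -0.036, outside the control arrays of each line, which lay within -0.015 and 0.009. In Huh-7 all 3 melatonin arrays were above all 3 controls for 37 members and below them for 10, where this held for 26.3% and 33.2% of all genes (59.5% in either direction). In HGC-27 they were above for 12 members and below for 28, where this held for 24.9% and 24.2% of all genes (49.1%). In HCT-8 the counts were 13 and 27, next to 21.5% and 24.2% (45.6%), and in HepG2 they were 25 and 8, next to 20.4% and 15.1% (35.5%).

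These directions rest partly on how the arrays are scaled. Spike-in RNAs were added by cell number, per the labels. Centring each array on the 2 spike-in probe sets brighter than the median probe set shifted all genes by 0.14 in HGC-27 cells, 0.13 in HCT-8 cells, -0.017 in Huh-7 cells and -0.15 in HepG2 cells. The members' median then became 0.10, 0.11, 0.061 and -0.084, a change of sign in every line but Huh-7. The calls became 0 higher and 3 lower in HGC-27 cells, 3 and 2 in HCT-8 cells, 2 and 3 in Huh-7 cells, and 0 and 2 in HepG2 cells. Of all genes, 28.5%, 22.4%, 36.8% and 5.11% were called in these lines under this centring. Centring subtracts 1 value per array, so it cannot alter the members' distance from the median of all genes, which was -0.029, 0.0054, 0.14 and 0.029. Repeated quantile normalization can alter that distance, and gave -0.0049, -0.015, 0.086 and 0.058. Centring on the array median gave 0 higher and 33 lower in HGC-27 cells, 3 and 10 in HCT-8 cells, 8 and 10 in Huh-7 cells, and 1 and 2 in HepG2 cells. Of all genes, 48.3%, 32.2%, 59.4% and 8% were then called. A repeated quantile normalization gave 4 and 11, 6 and 7, 24 and 4, and 0 and 1, with 40%, 31%, 49.1% and 6.79% of all genes called.

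**Figure D1:**
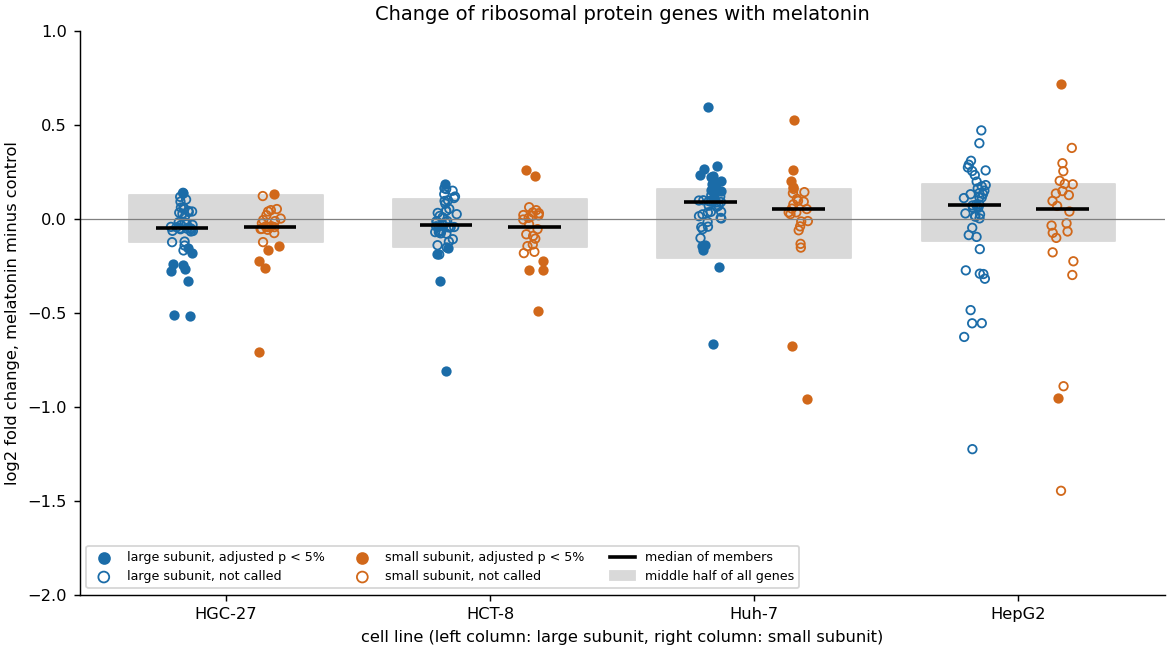
Log2 fold change (melatonin minus control) of each ribosomal protein gene by cell line, large subunit left and small subunit right in each line, with filled points for genes called by limma at an adjusted p under 5%, black bars for the members' medians and grey bands from the lower to the upper quartile of all genes. Most genes lie inside the grey band of their line, with RPS26 lowest in HGC-27 and Huh-7 and RPL27A lowest in HCT-8.

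The typical large and small subunit gene moved in the same direction in each line. The median log2 fold changes of large and small subunit genes were -0.045 and -0.041 in HGC-27 cells, -0.029 and -0.041 in HCT-8 cells, 0.091 and 0.055 in Huh-7 cells, and 0.073 and 0.055 in HepG2 cells. The large minus small difference was -0.0043, 0.012, 0.036 and 0.017 in these lines. The SD of the same difference among arrays of a group was 0.0077, 0.013, 0.0069 and 0.022, so that the difference exceeded 1 SD in Huh-7 only. There it turned negative with the brightest probe set of each gene (-0.015), with repeated quantile normalization (-0.032) and with probe sets of at least 8 log2 units (-0.018). The subunits' calls were 1 higher and 9 lower of 43 large against 1 and 5 of 24 small subunit genes in HGC-27 cells, 1 and 4 against 2 and 4 in HCT-8 cells, 13 and 5 against 4 and 2 in Huh-7 cells, and 0 and 0 against 1 and 1 in HepG2 cells. Without HepG2 melatonin replicate 1 they were 2 and 2 against 2 and 2, with medians of 0.060 and 0.053. The shares called in either direction were 23.3% of the large and 25% of the small subunit genes in HGC-27 cells, against 39.6% of all genes, 11.6% and 25% in HCT-8 cells, against 31.6%, and 41.9% and 25% in Huh-7 cells, against 51.2%. In HepG2 cells they were 0% and 8.33%, against 7.55%, or 9.3% and 16.7%, against 31.4%, without melatonin replicate 1. No test of the subunit contrast was made.

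Across lines, in the fit of mean gene values, 30 of the 67 members were called in none of the 4, next to 31.3% of all genes. RPS26, RPS14 and RPL35A were the members lower in all 3 lines other than HepG2, where 6.17% of all genes were, and RPS26 was the 1 member lower in all 4 lines, as were 1.5% of all genes. Without HepG2 melatonin replicate 1, RPS14 was called lower in all 4 lines too. No member was higher in those 3 lines together, as 8.39% of all genes were. RPL13A was the 1 member called in opposite directions, next to 5.08% of all genes.

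RPS26, which lies beside the mRNA exit channel of the small subunit and is mutated in Diamond-Blackfan anemia, was lower in every line. Its gene value was 8.52, 8.57 and 8.50 log2 units in HGC-27 melatonin arrays, against 9.20, 9.23 and 9.29 in controls. In HCT-8 it was 7.76, 7.80 and 7.75 with melatonin, against 8.21, 8.34 and 8.22 in controls. Huh-7 had 8.33, 8.26 and 8.24 with melatonin, against 9.25, 9.18 and 9.28 in controls. Every melatonin array lay below every control array in these lines. HepG2 had 6.30, 6.84 and 7.01 with melatonin, against 7.69, 7.71 and 7.61 in controls, again without overlap, the lowest value being replicate 1. The log2 fold changes were -0.71 ± 0.046, -0.49 ± 0.057, -0.96 ± 0.052 and -0.95 ± 0.19 (limma SE, n = 3 each), with limma adjusted p of 1.053e-05, 3.364e-04, 1.896e-06 and 0.037. Without HepG2 melatonin replicate 1 the HepG2 value was -0.74 (limma adjusted p = 2.708e-04). In HepG2 the call was lost without melatonin replicate 2 or without any 1 of the controls, at log2 fold changes of -1.01 to -0.93.

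The fall of RPS26 was carried by 1 of its 2 probe sets. The probe set averaging 5.93 log2 units changed by -1.40, -0.97, -1.72 and -1.64 in HGC-27, then HCT-8, then Huh-7, then HepG2. The one averaging 10.50 changed by -0.019, -0.014, -0.20 and -0.26, and of these the Huh-7 value alone passed the test (limma adjusted p = 0.024).

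RPS14, a platform protein of the small subunit whose reduced dosage underlies a deletion form of myelodysplastic syndrome, was also lower. In Huh-7 it was 9.15, 9.16 and 9.09 with melatonin, against 9.88, 9.70 and 9.85 in controls. In HCT-8 it was 8.96, 9.07 and 9.07 with melatonin, against 9.32, 9.27 and 9.32, and in HGC-27 it was 9.87, 9.9974 and 9.80 with melatonin, against 10.14, 10.10 and 10.10. The groups did not overlap in any of these lines. The log2 fold changes were -0.68, -0.27 and -0.22 (limma adjusted p = 3.013e-05, 0.0063 and 0.015). The HGC-27 call was lost without control replicate 1 (log2 fold change -0.21, limma adjusted p = 0.052). In HepG2 the values were 6.24, 9.09 and 9.23 with melatonin, against 9.66, 9.66 and 9.59. The change of -1.45 did not pass (limma adjusted p = 0.35), and without melatonin replicate 1 it was -0.47 and passed (limma adjusted p = 0.0013). Both RPS14 probe sets of about 8.45 and 8.48 log2 units carried the change (-1.11 and -0.998 in Huh-7), while the one at 11.24 changed by -0.012 in HGC-27 cells, -0.038 in HCT-8 cells and 0.072 in Huh-7 cells, and did not pass.

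RPS29, a small zinc-binding protein of the small subunit head, went the other way in 3 lines. It was 9.26, 9.25 and 9.29 with melatonin in Huh-7, against 8.75, 8.73 and 8.74 in controls. In HepG2 it was 10.04, 9.57 and 9.55 with melatonin, against 9.02, 8.99 and 8.99, and in HCT-8 it was 9.09, 9.05 and 9.04 with melatonin, against 8.92, 8.79 and 8.79. All melatonin arrays exceeded all controls in these lines, while in HGC-27 the groups were 9.43, 9.49 and 9.45 with melatonin, against 9.51, 9.50 and 9.48. The log2 fold changes were 0.53, 0.72 and 0.23 in Huh-7, HepG2 and HCT-8 (limma adjusted p = 2.268e-05, 0.040 and 0.017), and 0.56 in HepG2 without melatonin replicate 1. The HCT-8 call was lost without melatonin replicate 1 (0.21) or 2 (0.23), and the HepG2 call without any 1 array other than melatonin replicate 1 (0.71 to 0.80). Its probe set at 4.99 log2 units changed by -0.043 in HGC-27 cells, 0.65 in HCT-8 cells, 1.37 in Huh-7 cells and 1.84 in HepG2 cells. The probe sets at 11.26 and 11.35 changed by between -0.075 and 0.18 in the 4 lines, and none of those values passed the test.

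RPS27, a small subunit protein with a zinc finger, has a single bright probe set at 11.15 log2 units. It was 11.41, 11.37 and 11.43 with melatonin in Huh-7, against 11.12, 11.18 and 11.13 in controls, a log2 fold change of 0.26 (limma adjusted p = 0.0021). HepG2 had 11.23, 10.96 and 10.90 with melatonin, against 10.62, 10.67 and 10.67. The HepG2 change of 0.38 had a limma adjusted p of 0.099 and, without melatonin replicate 1, the change of 0.28 had one of 0.0093. In HGC-27 the change was 0.13 (limma adjusted p = 0.037), which was lost without any 1 array of that line, and in HCT-8 it was 0.047 and did not pass. RPS18 of the head, in contact with transfer RNA sites, was higher in HCT-8 (0.26, limma adjusted p = 0.034), a call lost without any 1 array other than melatonin replicate 2. RPS16, also of the head, was lower there (-0.27, limma adjusted p = 0.030), a call lost without any 1 array other than melatonin replicate 1 or control replicate 2. Each of these genes has 1 probe set averaging at least 8 log2 units. In HCT-8 it changed by 0.071 for RPS18 and -0.031 for RPS16, and neither passed.

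**Figure D2:**
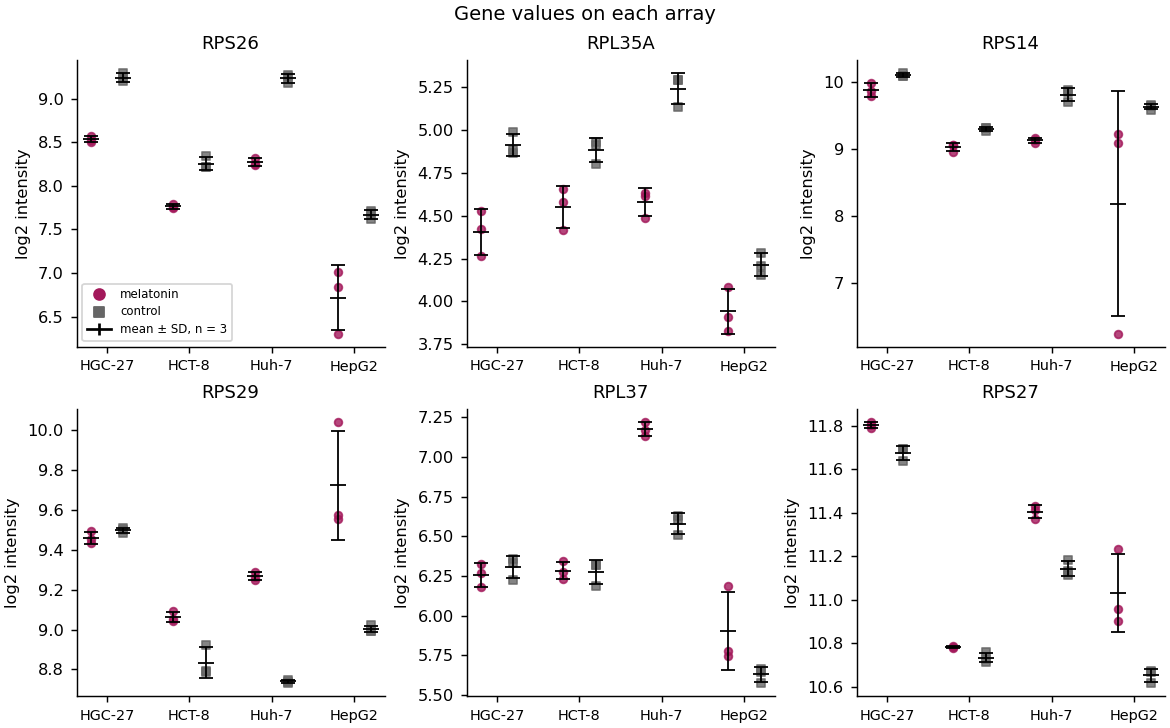
Log2 intensity of 6 ribosomal protein genes on each array (mean of a gene's probe sets), with melatonin arrays as circles left of the control arrays as squares in each line, and bars for mean ± SD (n = 3). RPS26, RPL35A and RPS14 lie lower with melatonin in every line without overlap of the arrays, though the HepG2 differences of RPL35A and RPS14 did not pass the test with all arrays, and the HepG2 melatonin group of RPS14 is spread by 1 array at 6.24.

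Among large subunit genes, RPL35A, another gene mutated in Diamond-Blackfan anemia, was lower in the same lines as RPS14. It was 4.49, 4.61 and 4.64 with melatonin in Huh-7, against 5.30, 5.14 and 5.29 in controls. In HGC-27 it was 4.27, 4.53 and 4.42 with melatonin, against 4.99, 4.87 and 4.89, and in HCT-8 it was 4.42, 4.58 and 4.66 with melatonin, against 4.80, 4.91 and 4.93. The groups did not overlap. The log2 fold changes were -0.66, -0.51 and -0.33 (limma adjusted p = 5.687e-05, 5.779e-04 and 0.0091). HepG2 had 3.83, 3.91 and 4.09 with melatonin, against 4.21, 4.28 and 4.15, again without overlap, a change of -0.27 that did not pass (limma adjusted p = 0.17), or -0.22 (limma adjusted p = 0.068) without melatonin replicate 1. Its 3 probe sets, at 1.33, 3.98 and 8.47 log2 units, differed over the lines: the brightest changed by -0.41 in HGC-27 cells, -0.019 in HCT-8 cells and -0.56 in Huh-7 cells, and the HCT-8 value did not pass.

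RPL27A had a single dim probe set at 2.37 log2 units, close to the array medians over all probe sets, which lay between 2.13 and 3.33. On every HGC-27 and Huh-7 array and on the HCT-8 melatonin arrays it lay below the array's own median, so the values below are differences at the low end of the scale, where a signal above background was not shown, and no change of the gene's mRNA is read from them. It was 1.94, 2.04 and 1.82 with melatonin in HCT-8, against 2.87, 2.88 and 2.46 in controls, and 1.71, 1.82 and 1.71 with melatonin in HGC-27, against 2.20, 2.17 and 2.42. The log2 differences were -0.81 (limma adjusted p = 9.989e-04) in HCT-8 and -0.51 (limma adjusted p = 5.805e-04) in HGC-27, without overlap of the groups. Huh-7 had 1.63, 1.54 and 1.31 with melatonin, against 1.60, 1.40 and 1.53, and the groups overlapped. HepG2 had 3.59, 2.45 and 3.03 with melatonin, against 4.25, 4.30 and 4.20, with a difference of -1.23 (limma adjusted p = 0.052), or -1.51 (limma adjusted p = 2.81e-04) without melatonin replicate 1.

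RPL13A, which outside the ribosome takes part in silencing of inflammatory mRNAs, was 11.11, 11.13 and 11.11 with melatonin in HGC-27, against 11.38, 11.38 and 11.40 in controls. Huh-7 had 11.48, 11.46 and 11.49 with melatonin, against 11.21, 11.19 and 11.23. It was thus below its controls in HGC-27 and above them in Huh-7, each without overlap. The log2 fold changes were -0.27 and 0.27 (limma adjusted p = 8.918e-04 and 0.0013), and those in HCT-8 and HepG2, -0.029 and -0.095, did not pass. The HepG2 value turned to 0.10 without melatonin replicate 1, the 3 melatonin arrays standing at -0.49, 0.070 and 0.14 relative to the control mean. Its probe set at 10.43 log2 units changed by -0.50 and 0.43 in HGC-27 and Huh-7, and the one at 11.66 by -0.029 and 0.10.

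RPL41, the smallest ribosomal protein, and RPL22, which binds RNAs of Epstein-Barr virus and has a close relative in RPL22L1, also varied between lines. RPL41 was 10.20, 10.22 and 10.18 with melatonin in HGC-27, against 10.49, 10.44 and 10.51 in controls (log2 fold change -0.28, limma adjusted p = 0.0010). Its changes were 0.044 in HCT-8 cells, -0.14 in Huh-7 cells and 0.20 in HepG2 cells, and of these the Huh-7 value alone passed (limma adjusted p = 0.038). That Huh-7 call was lost without any 1 array other than melatonin replicate 3. RPL22 was 9.41, 9.33 and 9.38 with melatonin in HGC-27, against 9.63, 9.60 and 9.62 (-0.25, limma adjusted p = 0.0021), and its values of -0.15, 0.10 and -0.16 in HCT-8, Huh-7 and HepG2 did not pass in the fit of mean gene values. Other settings did call RPL22. It was lower in HCT-8 with bright probe sets (limma adjusted p = 0.0021), the intensity trend, the methods' t-test and several more. It was higher in Huh-7 with bright probe sets (limma adjusted p = 0.0086) and the intensity trend, among others, and lower in HepG2 in the joint fit. The brightest probe sets of both genes, at 11.90 and 11.61 log2 units, changed by -0.037 and 0.011 in HGC-27 and did not pass.

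RPL37, a zinc-binding large subunit protein, had the largest rise of any member in Huh-7. It was 7.22, 7.17 and 7.13 with melatonin there, against 6.51, 6.63 and 6.60 in controls (log2 fold change 0.60, limma adjusted p = 3.33e-05). In HGC-27 cells, HCT-8 cells and HepG2 cells it changed by -0.050, 0.0096 and 0.27 and did not pass. Of its 6 probe sets, those at 5.44 and 4.96 log2 units rose by 1.73 and 1.19 in Huh-7, and those at 11.37 and 11.47 changed by 0.10 and 0.048 and did not pass. RPL31, which lines the exit of the peptide tunnel, was 6.86, 6.80 and 6.87 with melatonin in Huh-7, against 6.51, 6.61 and 6.56 (0.28, limma adjusted p = 0.0019). Its bright probe sets, at 11.57 and 11.35, changed by 0.059 and 0.029 there. In HepG2 RPL31 changed by 0.47 (limma adjusted p = 0.14), or by 0.30 (limma adjusted p = 0.0055) without melatonin replicate 1. RPL32 and RPL34 were lower in HGC-27 (-0.33 and -0.24) and in Huh-7 (-0.26 and -0.16, limma adjusted p = 0.0077 and 0.034). The 1 probe set of RPL32 averaging at least 8 log2 units changed by -0.053 in HGC-27 and -0.029 in Huh-7 and did not pass. The RPL34 call in Huh-7 was lost without any 1 array other than melatonin replicate 3, and its probe sets at 10.54 and 10.70 changed by 0.15 and 0.027 there, neither passing.

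These differences between probe sets ran through the family. Of the members' 193 probe sets, 137 averaged at least 8 log2 units over the 24 arrays and 56 were dimmer. That level was chosen after seeing the data. Among the bright ones, 13.1% were called in HGC-27 (7 higher, 11 lower), against 55.2% of all 1917 bright probe sets (23.4% higher, 31.8% lower). In HCT-8 it was 5.11% (2 higher, 5 lower), against 37.8% (16.6% and 21.1%). Huh-7 gave 29.9% (35 higher, 6 lower), against 64.7% (28.5% and 36.2%), and HepG2 gave 0%, against 7.77% (3.08% and 4.69%). Without HepG2 melatonin replicate 1, 5 of the 137 were called in HepG2 (3 higher, 2 lower) and 42.1% of all bright ones. Among the dim ones, 33.9% were called in HGC-27 (2 higher, 17 lower), next to 33.9% of all 43361 dim probe sets (18.2% higher, 15.7% lower). In HCT-8 it was 26.8% (7 and 8), next to 24.9% (14.4% and 10.5%). Huh-7 gave 32.1% (9 and 9), next to 44.7% (22.2% and 22.5%), and in HepG2 3.57% (2 and 0), next to 4.32% (2.29% and 2.03%). The median absolute change of a bright member probe set was 0.054, 0.049, 0.11 and 0.14 in HGC-27, then HCT-8, then Huh-7, then HepG2, against 0.17, 0.21, 0.20 and 0.24 for a dim one. Over all probe sets the order was the reverse, at 0.21, 0.16, 0.26 and 0.26 for bright against 0.14, 0.15, 0.21 and 0.19 for dim ones.

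A call on a gene was matched by a bright probe set of that gene called in the same direction for 7 of 16 calls in HGC-27 cells, 2 of 11 in HCT-8 cells, 17 of 24 in Huh-7 cells and 0 of 2 in HepG2 cells. Of the bright member probe sets, 121 of 137 (88.3%) have names ending in s_at or x_at, the maker's mark for probes that match several transcripts or may cross-hybridize, against 13 of 56 dim ones (23.2%). Ribosomal protein genes have many processed pseudogene copies, and their part in these values was not tested. Averaging the bright probe sets of a gene gave 66 members, of which 39 were higher and 5 lower in Huh-7 at a limma adjusted p under 5% over the 1051 genes with such probe sets, 83.5% of which were called.

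**Figure D3:**
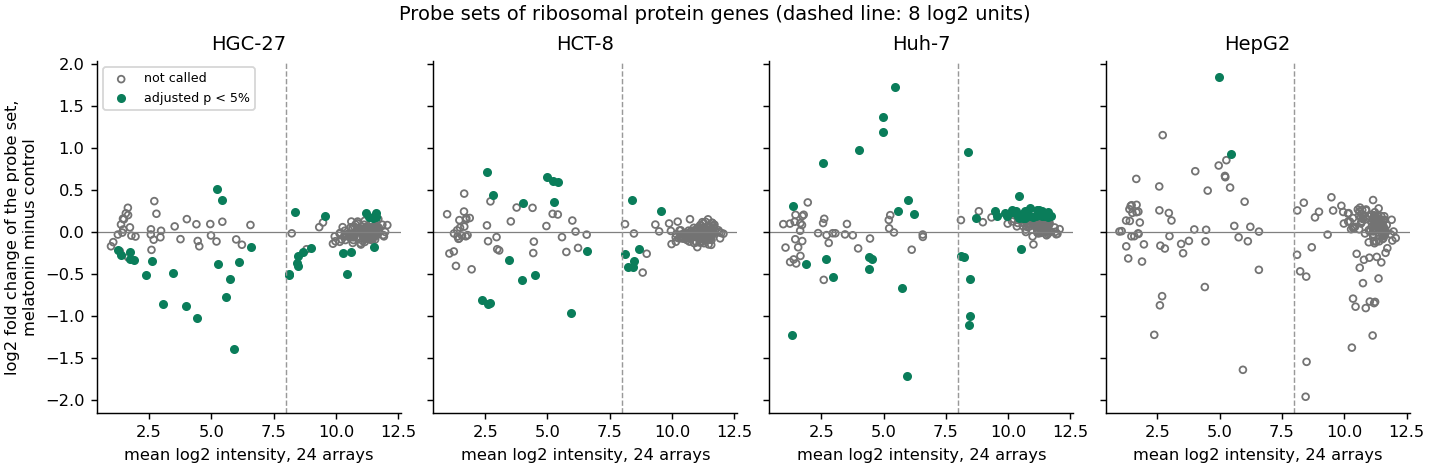
Log2 fold change (melatonin minus control) of each of the 193 probe sets against its mean log2 intensity over 24 arrays, one panel per line, with filled points for limma adjusted p under 5% over all probe sets. The changes beyond 1 log2 unit in HGC-27 and beyond 0.5 in HCT-8 lie left of the dashed line at 8, while in Huh-7 the bright probe sets have a median of 0.10.

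Seen by role, the acidic stalk that recruits translation factors had small differences, whose calls depended on the fit. RPLP1 was 12.16, 12.21 and 12.17 with melatonin in HGC-27, against 12.09, 12.09 and 12.08, and its changes of 0.093, 0.044, 0.092 and 0.0037 in HGC-27, then HCT-8, then Huh-7, then HepG2 did not pass. RPLP2 did not pass in any line either (-0.022, 0.12, 0.089 and -0.046). Averaged over bright probe sets alone, RPLP1 was called higher in HGC-27 (0.093, limma adjusted p = 0.013) and Huh-7 (0.092, limma adjusted p = 0.0085) and RPLP2 in Huh-7 (0.080, limma adjusted p = 0.026). RPLP1 was also called in those lines with the intensity trend and by the methods' t-test. RPL12 at the stalk base was higher in HGC-27 (0.14) and Huh-7 (0.16, limma adjusted p = 0.027 and 0.018). The HGC-27 call was lost without melatonin replicate 1 or 3 or control replicate 1 or 2, at changes of 0.13 to 0.14. The Huh-7 call was lost without melatonin or control replicate 2, at 0.15 and 0.16. After repeated quantile normalization the changes were 0.012 and 0.0355 in these lines, and neither passed. RPL12 was called higher in HCT-8 with bright probe sets (0.096, limma adjusted p = 0.012), the intensity trend and the methods' t-test. RPL12 has only probe sets above 11 log2 units, at 11.70 and 11.62, and these gave 0.18 and 0.15 in Huh-7.

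RPL5 and RPL11, which bind the ubiquitin ligase MDM2 when ribosome assembly fails, had a single call between them in the fit of mean gene values. RPL11 was 11.24, 11.24 and 11.31 with melatonin in Huh-7, against 11.12, 11.09 and 11.12 (log2 fold change 0.15, limma adjusted p = 0.029), a call lost without any 1 array of that line. RPL5 changed by -0.12 in HGC-27 cells (limma adjusted p = 0.053), -0.034 in HCT-8 cells, 0.13 in Huh-7 cells and 0.12 in HepG2 cells. Other settings did call RPL5: lower in HGC-27 with the low genes left out, after median centring, with bright probe sets, with the intensity trend, by the methods' t-test and with array weights (limma adjusted p of 0.0038 with bright probe sets), and higher in Huh-7 with the low genes left out, with bright probe sets (limma adjusted p = 0.0049) and with the intensity trend. RPL23, also an MDM2 binder, passed in no line in the fit of mean gene values (0.062, 0.033, 0.071 and 0.23). Some other settings called RPL23 higher in Huh-7, among them bright probe sets (limma adjusted p = 0.039) and the intensity trend. RPL23 was also called higher in HCT-8 by the test of the study's methods and in HepG2 in the joint fit. In the fit of mean gene values RPL10, which joins late in large subunit assembly, was higher in HCT-8 only (0.18, limma adjusted p = 0.021). Its values there were 7.08, 7.07 and 7.12 with melatonin, against 6.90, 6.91 and 6.90, without overlap. That call was lost without melatonin replicate 2 or 3. Its 3 probe sets near 11 log2 units changed by 0.051, -0.0019 and 0.083 there. With bright probe sets RPL10 was not called in HCT-8 (0.044, limma adjusted p = 0.205) but was higher in Huh-7 (0.11, limma adjusted p = 0.0052). Several other settings called it higher in HGC-27, among them median probe sets (0.22, limma adjusted p = 0.012), repeated quantile normalization and the intensity trend.

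RPS6, the classic target of the S6 kinases, RPS3 at the mRNA entry and RPS19, the gene most often mutated in Diamond-Blackfan anemia, were called in no line in the fit of mean gene values. RPS6 changed by 0.0028, 0.020, 0.14 and 0.19, RPS3 by -0.052, 0.0066, -0.013 and -0.30, and RPS19 by 0.021, -0.14, -0.060 and -0.18 in HGC-27, then HCT-8, then Huh-7, then HepG2. The HepG2 values of RPS3 and RPS19 came from melatonin replicate 1, at -0.91 and -0.51 relative to the control mean, and without it they were 0.0064 and -0.011. With bright probe sets RPS6 was called higher in Huh-7 (0.22, limma adjusted p = 6.6e-05), as it was with the brightest or median probe sets, the low genes left out, repeated quantile normalization and the intensity trend. RPS19 was called higher in HGC-27 with its bright probe set (0.16, limma adjusted p = 2.55e-04), its other probe set averaging 1.06 log2 units. RPS3 was 11.50, 11.53 and 11.51 with melatonin in Huh-7, against 11.58, 11.46 and 11.54. Of 18 measured Diamond-Blackfan anemia genes of the ribosome, 1 was higher and 3 lower in HGC-27 cells, 1 and 4 in HCT-8 cells, 6 and 3 in Huh-7 cells and 1 and 1 in HepG2 cells, with medians of -0.035, -0.048, 0.088 and 0.12. Without HepG2 melatonin replicate 1, 3 of these 18 were higher and 1 lower in HepG2, with a median of 0.054. The shares called were 22.2%, 27.8% and 50% in the 3 lines other than HepG2, against 39.6%, 31.6% and 51.2% of all genes, and in HepG2 11.1%, against 7.55%, or 22.2%, against 31.4%, without that array. The 7 genes around the exit of the peptide tunnel had 1 lower in HGC-27 cells, 1 lower in HCT-8 cells, 2 higher in Huh-7 cells and 0 called in HepG2 cells (1 higher without melatonin replicate 1), or 14.3%, 14.3% and 28.6% in the 3 lines other than HepG2. The 10 measured genes of the small subunit head had 3 lower in HGC-27 cells, 2 higher and 1 lower in HCT-8 cells, 2 higher in Huh-7 cells and 1 higher in HepG2 cells with and without melatonin replicate 1, or 30%, 30% and 20% in the 3 lines other than HepG2. Both sets lay below the shares of all genes in those lines, 39.6%, 31.6% and 51.2%.

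Some genes had probe sets called in opposite directions in 1 line. RPL28 in HGC-27 had 3 higher and 2 lower. RPL10 in HGC-27 had 2 higher and 1 lower. RPS15A in HCT-8 had 1 higher and 2 lower, and in Huh-7 it had 3 higher and 1 lower. RPS15A in HCT-8 was 8.25, 8.31 and 8.33 with melatonin, against 8.52, 8.48 and 8.57 in controls, and called lower (-0.22), while its 3 probe sets above 11 log2 units changed by between -0.028 and 0.015. RPL28 in Huh-7 was 7.25, 7.21 and 7.24 with melatonin, against 6.99, 6.98 and 7.03 (0.24, limma adjusted p = 0.0029), and its 4 probe sets above 11 log2 units rose by 0.20 to 0.26, each past the test.

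The size of the response differed between lines for 17 of the 67 members by limma's F test of the interaction in a joint fit of 24 arrays, next to 34.3% of all genes. Without HepG2 melatonin replicate 1 there were 32, next to 53.7%. RPL41 led (limma adjusted p = 1.031e-04), with HGC-27 minus HepG2 at -0.48 ± 0.070 (limma SE). RPS29 followed (limma adjusted p = 2.271e-04), with HGC-27 minus HepG2 at -0.76 ± 0.12, then RPL37 (limma adjusted p = 0.0010), with HGC-27 minus Huh-7 at -0.65 ± 0.12. RPL22 (limma adjusted p = 0.0016) differed by -0.35 ± 0.065 between HGC-27 and Huh-7, and RPL27A (limma adjusted p = 0.0065) by 1.21 ± 0.26 between Huh-7 and HepG2. The single probe set of RPL27A lay below the array median on every Huh-7 array, so no difference in mRNA response is read from it. RPS26 and RPS14 were not among the 17 (limma adjusted p = 0.054 and 0.33), and without HepG2 melatonin replicate 1 both were among the 32 (limma adjusted p = 1.528e-04 and 1.966e-04).

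HepG2 melatonin replicate 1 spread the members widely. On this array 13 members lay more than 0.5 log2 units below the mean of the controls and 9 more than 0.5 above it, against 3 and 1 on replicate 2 and 2 and 1 on replicate 3. RPS14 stood at -3.39. The others below -1.5, named after their values were seen, were RPS9 at -2.81, RPL3 at -2.10, RPL8 at -1.94, RPL29 at -1.78 and RPL18 at -1.53. On replicates 2 and 3, RPS9, RPL3, RPL8, RPL29 and RPL18 lay between 0.0093 and 0.14. Over all genes, 14.7% lay more than 0.5 below the control mean on replicate 1, 6.76% on replicate 2 and 5.02% on replicate 3. RPS26 was below its controls on all 3 arrays (-1.37, -0.83 and -0.66), as was RPL27A (-0.66, -1.80 and -1.22), and RPS29 was above on all 3 (1.03, 0.57 and 0.55).

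**Figure D4:**
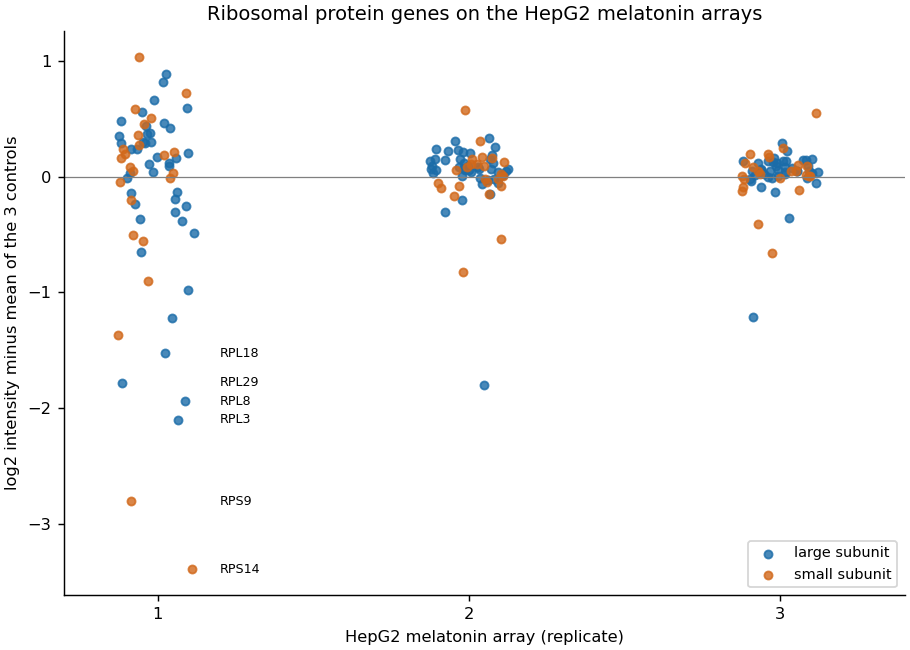
Log2 intensity of each ribosomal protein gene on the 3 HepG2 melatonin arrays minus the mean of the 3 HepG2 controls, large and small subunit in separate colours. Replicate 1 is spread from -3.39 (RPS14) to 1.03 (RPS29), while most genes of replicates 2 and 3 lie close to 0.

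Genes that serve the ribosome without being part of the cytosolic one had larger changes. Of 61 ribosome biogenesis factors, 51 were lower and 1 higher in HGC-27 cells, 46 and 4 in HCT-8 cells, 56 and 2 in Huh-7 cells, and 16 and 0 in HepG2 cells (40 and 0 without melatonin replicate 1), with medians of -0.49, -0.34, -0.96 and -0.50 (-0.31 without that array). The shares lower were 83.6%, 75.4% and 91.8% in the 3 lines other than HepG2, against 18.6%, 15% and 27.4% of all genes. In HepG2 26.2% were lower, against 3.68% of all genes, or 65.6%, against 14.9%, without melatonin replicate 1. MRTO4, which holds the place of the stalk protein RPLP0 during assembly, averaged 4.80 log2 units with melatonin in Huh-7, against 6.49 in controls (-1.69), and was lower in the other lines too (-0.94 in HGC-27 cells, -0.90 in HCT-8 cells and -1.06 in HepG2 cells, or -0.91 there without melatonin replicate 1). UTP20, of the complex that processes small subunit rRNA, averaged 4.26 with melatonin in Huh-7, against 6.16 in controls (-1.90). PES1, which is needed for large subunit rRNA processing, changed by -0.82 in HGC-27 and -0.98 in Huh-7, and its HepG2 value of -1.99 did not pass until melatonin replicate 1 was left out (-0.66). RRS1, named here for its role of bringing RPL5 and RPL11 into the assembling subunit, was lower in every line (-0.97, -0.68, -1.42 and -0.65, the last being -0.59 without melatonin replicate 1).

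Of 76 mitochondrial ribosomal protein genes, 41 were lower and 6 higher in HGC-27 cells, 33 and 4 in HCT-8 cells, 53 and 7 in Huh-7 cells, and 2 and 0 in HepG2 cells (42 and 5 without melatonin replicate 1), with medians of -0.16, -0.16, -0.40 and -0.18 (-0.24 without that array). The shares lower were 53.9%, 43.4% and 69.7% in the 3 lines other than HepG2, against 18.6%, 15% and 27.4% of all genes, and in HepG2 2.63%, against 3.68%, or 55.3%, against 14.9%, without melatonin replicate 1. MRPL23 averaged 8.16 with melatonin in Huh-7, against 9.15 in controls (-0.99). MRPL12, a stalk protein of the mitochondrial ribosome, averaged 7.14 with melatonin in Huh-7, against 8.13 in controls (-0.99). Of 18 other genes known for TOP tracts, 10 were lower and 0 higher in HGC-27 cells, 2 and 1 in HCT-8 cells, 2 and 7 in Huh-7 cells and 0 and 0 in HepG2 cells (1 and 1 without melatonin replicate 1). The share lower was 55.6% in HGC-27, against 18.6% of all genes. In Huh-7 38.9% were higher, against 23.8%, and 11.1% lower, against 27.4%. The share called in either direction was 16.7% in HCT-8, against 31.6% of all genes. In HepG2 it was 0%, against 7.55%, or 11.1%, against 31.4%, without melatonin replicate 1. The initiation factor EIF4B (-0.82) and the elongation factor EEF1A1 (-0.49) were lower in HGC-27, and the elongation factor EEF2 (0.59) was higher in Huh-7. These lists were described by their counts and medians, and their difference from the cytosolic set was not tested.

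**Figure D5:**
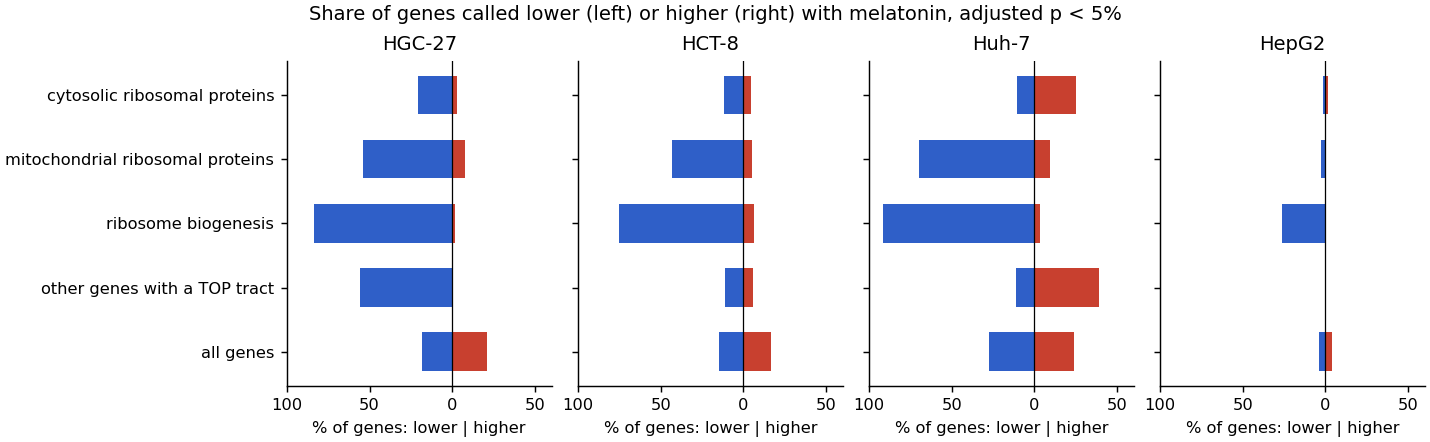
Percent of each gene group called lower (bars to the left) or higher (bars to the right) with melatonin by limma at an adjusted p under 5%, one panel per line. The cytosolic ribosomal proteins reach 20.9% lower in HGC-27 and 25.4% higher in Huh-7, while ribosome biogenesis reaches 83.6% lower in HGC-27 cells, 75.4% in HCT-8 cells and 91.8% in Huh-7 cells.

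Of 8 paralogs that can replace or resemble a member, 3 were lower and 1 higher in HGC-27, 5 and 1 in Huh-7, and none were called in HCT-8 or HepG2, there also without melatonin replicate 1. The share called was 50% in HGC-27, against 39.6% of all genes, and 75% in Huh-7, against 51.2%. RPL22L1 was lower in HGC-27 (-0.24) and Huh-7 (-0.35), RPL7L1 (-0.35 and -0.20) and RPL36AL (-0.23 and -0.16) likewise. RPS27L, a close relative of RPS27, was lower in Huh-7 (-0.29, limma adjusted p = 0.0030), where RPS27 itself was higher. RPL3L, otherwise a muscle gene, is among those 5 in Huh-7, but its 1.58 log2 units with melatonin and 1.88 in controls lay below the array medians of 3.27 to 3.33, so that no level above background was shown and no fall is read from them. RPL26L1 was higher in Huh-7 (0.33, limma adjusted p = 5.081e-04) and RPL10L, otherwise a testis gene, was higher in HGC-27 (0.33). RPL39L was called in no line. FAU, which encodes a small subunit protein fused to a ubiquitin-like protein, was called in no line (0.076, -0.064, 0.0027 and -5e-04).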

How the data were processed

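RNA of 24 cultures, 3 melatonin and 3 control in each of 4 lines, was hybridised to customised PrimeView arrays. The authors deposited log2 intensities, summarised by RMA per the labels; whether all arrays or each line were normalised together is not given in the sources used here. Of 49495 probe sets, 45284 carried 1 gene symbol, 1333 several and 2878 none. After removal of 6 control probe sets, 45278 were averaged into 18244 genes. Each line was fitted with limma 3.58.1 (R 4.3.3), Benjamini-Hochberg adjusted to 5% over all genes, and the interaction in a joint fit. Fold changes are melatonin minus control on the log2 scale. The scripts were tested on simulated data. Gene members and lists were chosen with earlier results of these data known. Most members were named by rule: called the same way in 3 lines, called in opposite directions, the largest changes per line, the 5 smallest interaction p, fixed genes of known role, paralogs, and genes with discordant probe sets. Genes of the other lists were named as examples and need not have the largest change of their list. Arrays allow no depth estimate; 3 per group limits precision. Start windows are from RefSeq. Alternatives comprised probe set choice, scaling, filter, spread estimate, test, block, array weights and single arrays left out.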

Additional observations from a re-analysis of the deposited data

Results flagged for a closer look

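The change with melatonin differed between the 4 lines for 17 cytosolic ribosomal protein genes, by limma's F test of the interaction with Benjamini-Hochberg adjustment over all genes. The limma adjusted p was 1.031e-04 for RPL41, 2.271e-04 for RPS29, 0.0010 for RPL37, 0.0016 for RPL22, 0.0065 for RPL27A and 0.0073 for RPL38. It was 0.011 for RPS16, 0.011 for RPL10A, 0.023 for RPL5, 0.024 for RPS27, 0.025 for RPL30 and 0.027 for RPL31. It was 0.029 for RPS2, 0.030 for RPL13A, 0.034 for RPS28, 0.040 for RPL35A and 0.046 for RPS7. RPL10A and RPL30 were higher in Huh-7 (0.22 and 0.20), and RPL38 and RPS28 were lower in HGC-27 (-0.16 and -0.16). RPS2 and RPS7 were called in no line alone in the fit of mean gene values. With bright probe sets both were called lower in HCT-8 (-0.25 and -0.14) and higher in Huh-7 (0.14 and 0.078). RPL27A rests on the single dim probe set described above.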

How the results depend on the processing

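The counts of members called rested on how probe sets and arrays were treated. The share of all genes called under the same setting is given in brackets beside each count. The ranges for HepG2 and for the interaction without single arrays are given without it. With the brightest probe set of each gene, 7 members were called in HGC-27 (38.2%), 2 in HCT-8 cells (31.1%) and 0 in HepG2 (7.51%), and 6 had an interaction (33.9%). With probe sets of at least 8 log2 units, a level chosen after seeing the data, there were 20 in HCT-8 cells (68.4%), 44 in Huh-7 (83.5%), 0 in HepG2 (20.6%) and 26 for the interaction (54.8%). Median probe sets gave 1 in HepG2 (5.72%), and repeated quantile normalization 1 (6.79%). Arrays centred on their median gave 33 in HGC-27 (48.3%), and centred on the spike-ins 3 in HGC-27 (28.5%), 5 in HCT-8 cells (22.4%), 5 in Huh-7 (36.8%) and 2 for the interaction (21.5%). A limma fit with an intensity trend and robust spread gave 27 in HGC-27 (40.1%), 29 in HCT-8 cells (32.7%) and 43 in Huh-7 (50.8%). The joint fit gave 15 in Huh-7 (39.3%) and 24 in HepG2 (32.1%), and array weights 10 in HepG2 (33.2%) and 38 for the interaction (55.9%). The methods' t-test with Benjamini-Hochberg adjustment gave 22 in HGC-27 (32.9%), 19 in HCT-8 cells (23.2%), 34 in Huh-7 (44%) and 0 in HepG2 (2.92%). The members' share thus passed that of all genes in HCT-8 and Huh-7 with the intensity trend and with the t-test, and in HepG2 in the joint fit, and it was within about 1 percentage point of it in HGC-27 with median centring, the intensity trend and the t-test. By its construction, a fold change of at least 1.5 left 1 in HGC-27 (7.19%), 1 in HCT-8 cells (4.55%) and 4 in Huh-7 (16.1%). Leaving out single arrays gave 10 to 17 members in HGC-27 cells (34.4% to 38%), 6 to 10 in HCT-8 cells (23.2% to 29.4%) and 13 to 22 in Huh-7 (45.1% to 49.6%). It gave 0 to 8 in HepG2 and 12 to 32 for the interaction. The lowest counts were 10 without HGC-27 control replicate 1 (34.5%), and 6 and 7 without HCT-8 melatonin replicate 2 (23.2%) and 3 (23.7%). In Huh-7 they were 13 without control replicate 2 (45.8%) and 14 without melatonin replicate 2 (45.7%). In HepG2, 8 were called without melatonin replicate 1 (31.4%), 1 without melatonin replicate 3 (5.66%) and 0 without melatonin replicate 2 (1.72%). None were called without any 1 control, where few genes of any kind were called (0.115% without control replicate 1 and 0.17% without control replicate 2). The interaction count was 32 without HepG2 melatonin replicate 1 (53.7%) and 28 without HepG2 melatonin replicate 3 (42.1%).

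The members' median log2 fold change in HGC-27 was -0.0119 with the brightest probe sets, -0.017 after quantile normalization, -0.1236 after median centring, 0.1002 after spike-in centring, -0.0294 with bright probe sets and -0.0418 to -0.0327 without single arrays. In HCT-8 it was -0.014 with the brightest probe sets, 0.1053 after spike-in centring and -0.0412 to -0.019 without single arrays. The Huh-7 value was 0.0925 with median probe sets, 0.0603 after quantile normalization, 0.0173 after median centring, 0.0612 after spike-in centring, 0.0924 with bright probe sets and 0.0645 to 0.0779 without single arrays. The HepG2 value was 0.1098 with median probe sets, 0.0143 after median centring, -0.0839 after spike-in centring and 0.0594 to 0.1003 without single arrays. The large minus small difference in HGC-27 was -0.0183 (brightest), -0.0374 (median) and -0.0296 (bright), and -0.009 to 0.0019 without single arrays. In HCT-8 it was -0.0097 (bright), and -0.0012 to 0.0305 without single arrays. For Huh-7 this was -0.0153 (brightest), 0.0033 (median), -0.0316 (quantile) and -0.0175 (bright), and 0.0195 to 0.0372 without single arrays. For HepG2 this was 0.051 (brightest), -0.0508 (median) and -0.0206 (quantile), and 0.0067 to 0.0312 without single arrays.

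Sign reversals among named genes came with the choice of probe sets and scaling. With the brightest probe set, RPL22 in HGC-27 was 0.0107, RPS29 and RPL10 in HCT-8 were -0.0155 and -0.0019, and RPS14, RPL41 and RPL34 in Huh-7 were 0.0719, 8e-04 and 0.0272. With median probe sets, RPS15A in HCT-8 was 0.1948 and RPL34 in Huh-7 was 0.1491. RPL41 in Huh-7 was 0.0233 after quantile normalization. With bright probe sets, RPS15A in HCT-8 was 0.0899, and RPL34 and RPS19 in Huh-7 were 0.0882 and 0.0673. Of 1292 values of named genes under other settings, 1075 kept direction and side of the threshold, 98 lost their call, 107 gained one and 12 reversed. Of 648 values without single arrays, these were 588, 51, 9 and 0. Beyond those set by construction, the cause was not tested. Same-numbered arrays of a line correlated at -0.041 to 0.14 in their deviations, so the number is taken as a name only. A replicate block gave 12 members in HGC-27 cells (37.4% of all genes), 8 in HCT-8 cells (28.6%), 21 in Huh-7 (50%), 0 in HepG2 (0.23%) and 8 for the interaction (29.5%).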
